A study of Mus musculus with 6 samples.

Results

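The muscle miRNAs examined here are mmu-miR-1a-3p, mmu-miR-133a-3p, mmu-miR-133b-3p and mmu-miR-206-3p (written below without the species prefix), 4 of the 1034 distinct mature miRNAs in the deposited table. They were found by name, and for a name with rows at several genomic copies the row of highest total stands for it. The libraries were small RNA libraries of nephron progenitor cells, the cells of the outer developing kidney that form nephrons, from mice of the CD1 strain. There were 3 libraries from embryos at stage E14.5, in mid-gestation, and 3 from pups on their day of birth, called P0. Each library came from the pooled kidneys of 1 litter, from which cells carrying the integrin Itga8 were pulled down on antibody-coated beads after a brief digestion. The labels gave no genotype beyond the strain and named no treatment, and the groups are compared by stage. The levels below were read as signs of muscle-lineage RNA in a kidney preparation. In a pooled bulk sample, fewer cells of a type and less RNA per cell cannot be told apart.

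These miRNAs are often called myomiRs because heart and skeletal muscle hold them at very high levels. Their genes are switched on by the muscle transcription factors SRF, MEF2 and MyoD. miR-1 promotes the differentiation of muscle cells and is shared by heart and skeletal muscle, as is miR-133a, which is made from the same primary transcripts as miR-1 and restrains SRF. miR-206 is found mainly in skeletal muscle and shares its seed, the stretch that pairs with target mRNAs, with miR-1. miR-133b is encoded beside miR-206 and is nearly identical to miR-133a. None of them is a known marker of nephron progenitors.

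The mature sequences of miR-206-3p and miR-133b-3p, from RefSeq (build GRCm38.p6), are shown because each carries the seed of its family, with bases 2 to 8 in capitals. RefSeq sequences were matched for these 2 of the 4 members.
miR-206-3p: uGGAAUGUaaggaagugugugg
miR-133b-3p: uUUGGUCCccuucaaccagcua
The seeds, GGAAUGU and UUGGUCC, differ, and the members fall into a miR-1 and miR-206 group and a miR-133a and miR-133b group. miR-206-3p lies at chr1:20679055-20679076 on the plus strand and miR-133b-3p at chr1:20682834-20682855 on the plus strand. Both lie within exons of the lincRNA Gm28653 in GENCODE M21 (build GRCm38), and their hairpins Mir206 and Mir133b are 3686 bases apart. The rows used for the other members were at Mir1a-1 (chr2:180389096-180389117, plus strand) and Mir133a-2 (chr2:180398437-180398458, plus strand). These 2 hairpins are 9254 bases apart, and no gene other than the miRNA gene itself was annotated across these positions.

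All 4 members were scarce. Levels are in TPM, reads per miRNA divided by length and scaled to a total of 1000000 per library, and whole reads, 2649506 to 34934526 per library, could be recovered from them. Together the members took 28.0, 65.3 and 72.0 TPM across E14.5 replicates 1 to 3, and 22.9, 15.4 and 133.03 TPM across P0 replicates 1 to 3. This was between 0.00154% and 0.0133% of the TPM of a library. The stage means of the sum were 55.1 ± 23.7 TPM at E14.5 and 57.1 ± 65.8 TPM at P0 (SD, n = 3), and the P0 libraries spanned a wider range than the E14.5 libraries, with values both below and above all of them. Of 1034 miRNAs ranked by mean level, miR-1a-3p stood at 303, miR-206-3p at 421, miR-133a-3p at 449 and miR-133b-3p at 787. For comparison, miR-143-3p, a smooth muscle miRNA that kidney stroma and vessels also hold, stood at 18, and miR-124-3p, a neuronal miRNA, stood at 1025.

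miR-1a-3p was the most abundant member in 5 of the 6 libraries. Its level was 18.9, 36.7 and 28.2 TPM across E14.5 replicates 1 to 3, from 50, 866 and 144 reads. At birth it was 14.7, 12.3 and 109 TPM across P0 replicates 1 to 3, from 512, 273 and 2340 reads. Thus P0 replicates 1 and 2 lay below every E14.5 library and P0 replicate 3 lay above all of them, so the stages overlapped. The stage means were 28.0 ± 8.91 TPM at E14.5 and 45.3 ± 55.1 TPM at P0 (SD, n = 3), and within P0 the highest library was 8.87 times the lowest, against 1.94 times within E14.5. The exact 95% intervals for read counting were 105 to 113 TPM in P0 replicate 3 and 10.9 to 13.8 TPM in P0 replicate 2, without overlap. These intervals cover counting error only, not the usual spread between litters. In P0 replicate 3 miR-1a-3p ranked 147 of 701 miRNAs with a read, whereas in the other 5 libraries its rank was between 321 and 394.

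miR-133a-3p showed the same pattern of high and low libraries at a lower level. Its level was 5.68, 10.2 and 10.4 TPM across E14.5 replicates 1 to 3, from 15, 240 and 53 reads. At birth it was 1.90, 2.21 and 17.1 TPM across P0 replicates 1 to 3, from 66, 49 and 367 reads. As with miR-1a-3p, in TPM P0 replicates 1 and 2 were below every E14.5 library and P0 replicate 3 was above every one. The stages therefore overlapped. The stage means were 8.75 ± 2.66 TPM at E14.5 and 7.06 ± 8.68 TPM at P0 (SD, n = 3).

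miR-206-3p, the skeletal muscle member, followed another pattern. Its level was 3.41, 18.3 and 30.5 TPM across E14.5 replicates 1 to 3, from 9, 432 and 156 reads. At birth it was 6.30, 0.945 and 6.98 TPM across P0 replicates 1 to 3, from 219, 21 and 150 reads. The high libraries were E14.5 replicates 2 and 3, both above every P0 library, while E14.5 replicate 1 lay within the P0 range, with an exact 95% interval of 1.56 to 6.47 TPM. The stage means were 17.4 ± 13.6 TPM at E14.5 and 4.74 ± 3.31 TPM at P0 (SD, n = 3). Between P0 replicate 3, which had the most miR-1a-3p and miR-133a-3p, and P0 replicate 1, the comparison of miR-206-3p depended on the scaling. In TPM their intervals overlapped, at 5.91 to 8.19 and 5.49 to 7.19 TPM. After division by median-of-ratios factors P0 replicate 3 was higher, at 12.3 (interval 10.4 to 14.4) against 7.18 (6.26 to 8.20).

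miR-133b-3p was near the limit of detection. It had 17 reads over all libraries, of which 15 were in E14.5 replicate 3, 1 in E14.5 replicate 2 and 1 in P0 replicate 3. The level was 2.94 TPM in E14.5 replicate 3, with an exact 95% interval of 1.64 to 4.84 TPM, and 0.0424 and 0.0465 TPM in the libraries with 1 read. The libraries with 0 reads allow, at 3 reads, up to 1.14 TPM in E14.5 replicate 1, 0.0863 TPM in P0 replicate 1 and 0.135 TPM in P0 replicate 2. E14.5 replicate 3 was also the library with the most miR-206-3p, the neighbour of miR-133b-3p on chromosome 1. With a mean of 0.504 TPM, miR-133b-3p did not reach the mean of 1 TPM required for the test. Because miR-133a and miR-133b are nearly identical, how the authors' counting divided reads between them is uncertain.

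**Figure D1:**
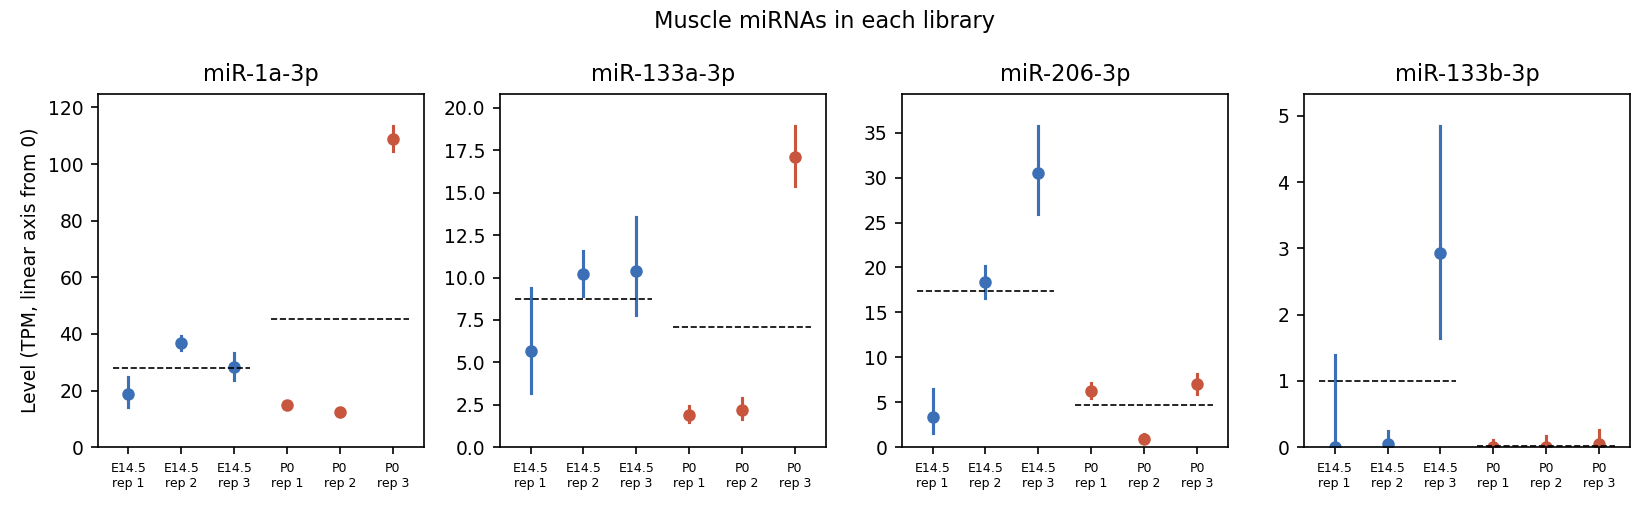
Level of each muscle miRNA in each library in TPM on linear axes that start at 0 and differ between panels. Points are single libraries (blue E14.5, red P0), vertical bars are exact 95% intervals for read counting and dashed lines are stage means; P0 replicate 3 is the highest library for miR-1a-3p (109 TPM) and miR-133a-3p (17.1 TPM), and E14.5 replicate 3 for miR-206-3p (30.5 TPM) and miR-133b-3p (2.94 TPM).

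miR-133b-3p was the lowest member in all 6 libraries, and the order above it varied. miR-1a-3p exceeded miR-133a-3p in all 6. miR-206-3p was above miR-133a-3p in E14.5 replicates 2 and 3 and in P0 replicate 1, and below it in the other 3 libraries. In E14.5 replicate 1 these 2 were measured with 9 and 15 reads and their intervals overlapped. In E14.5 replicate 3, miR-206-3p exceeded miR-1a-3p, at 30.5 against 28.2 TPM, with overlapping intervals of 25.9 to 35.7 and 23.8 to 33.2 TPM. miR-206-3p therefore made up 42.4% of the members' summed TPM in that library and 5.25% in P0 replicate 3.

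Ratios between members within a library do not depend on how libraries are scaled to each other. The level of miR-133a-3p relative to miR-1a-3p was 0.300, 0.277 and 0.368 across E14.5 replicates 1 to 3 and 0.129, 0.179 and 0.157 across P0 replicates 1 to 3. All E14.5 libraries were above all P0 libraries, with means of 0.315 ± 0.0473 and 0.155 ± 0.0253 (SD, n = 3). The ratio varied 1.33 times within E14.5 and 1.39 times within P0, whereas the level of miR-1a-3p itself varied 8.87 times within P0. The exact 95% interval in E14.5 replicate 1, from 15 and 50 reads, was 0.156 to 0.543 and reached into the P0 range. Non-overlap of this kind was frequent, since of the other 669 miRNAs tested, 20% had a ratio to miR-1a-3p whose stages did not overlap, and 18.8% had a lower ratio at P0 in every library. miR-133a-3p is 1 of the latter. The ratio was chosen after the levels had been seen and is given without a test.

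The ratio of miR-206-3p to miR-1a-3p varied more in the rows used. It was 0.180, 0.499 and 1.083 across E14.5 replicates 1 to 3 and 0.428, 0.0769 and 0.0641 across P0 replicates 1 to 3. The stages overlapped, because P0 replicate 1 was above E14.5 replicate 1. The ratio varied 6.02 times within E14.5 and 6.67 times within P0. P0 replicates 2 and 3 had nearly the same ratio, with intervals of 0.0469 to 0.120 and 0.0540 to 0.0756, although their miR-1a-3p levels were 12.3 and 109 TPM.

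**Figure D2:**
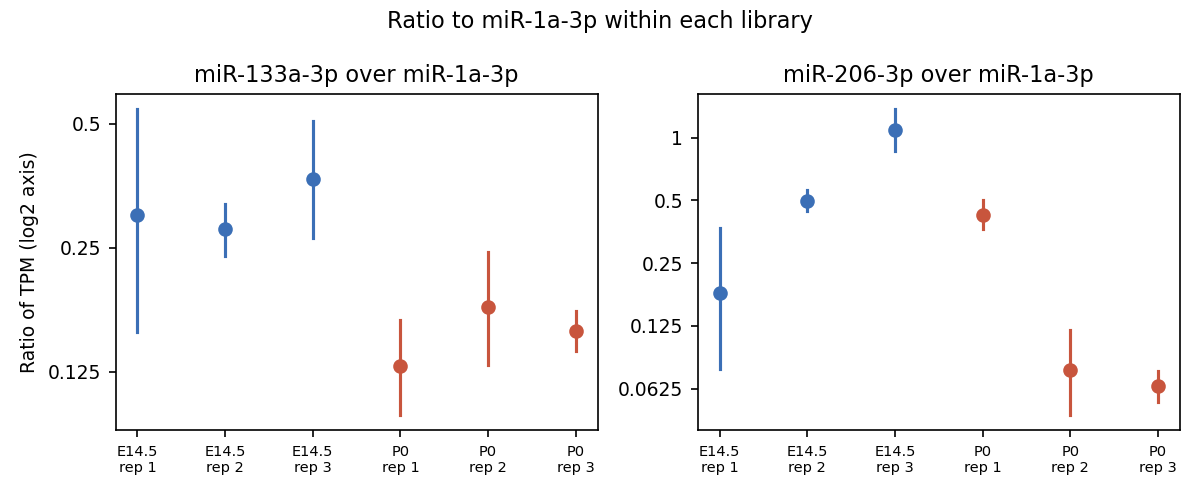
Ratio of miR-133a-3p (left) and miR-206-3p (right) to miR-1a-3p in each library, in TPM, on log2 axes. Points are single libraries (blue E14.5, red P0) with exact 95% intervals for read counting; the miR-133a-3p ratio lies between 0.277 and 0.368 at E14.5 and between 0.129 and 0.179 at P0, and the miR-206-3p ratio spans 0.0641 to 1.083 with overlapping stages.

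The stage difference was then tested with limma on log2(TPM + 1). The fit took in every miRNA averaging 1 TPM or more, which left 670. In this fit 229 (34.2%) fell under a Benjamini-Hochberg adjusted p of 0.05, made up of 9 that rose toward P0 (1.34%) and 220 that fell (32.8%). The stage values of 332 miRNAs did not overlap (49.6%), against 0 of the 3 members tested. None of these 3 passed in limma, and 0 of the 3 had an unadjusted p under 0.05. The log2 fold change of miR-1a-3p was 0.02 (SE 0.79, 95% interval −1.68 to 1.72, limma adjusted p = 0.983). That of miR-133a-3p was −0.78 (SE 0.73, 95% interval −2.37 to 0.81, limma adjusted p = 0.394). That of miR-206-3p was −1.52 (SE 0.81, 95% interval −3.27 to 0.23, limma adjusted p = 0.147). The intervals are wide enough to hold a change of 2 on the log2 scale for miR-133a-3p and miR-206-3p, so the missed threshold does not show equal levels.

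The general shift of the library composition bears on these values. In TPM the median log2 fold change of all 670 miRNAs was −1.20, and after median-of-ratios scaling, which aligns the libraries on a typical miRNA, it was −0.17. The members' median was −0.78 in TPM and 0.31 after scaling, over the 3 tested. After scaling, 73 of the 670 miRNAs were called (10.9%). They split into 38 risers (5.67%) and 35 fallers (5.22%), and none of the 3 members was among them, with 0 of 3 at an unadjusted p under 0.05. The scaled log2 fold change was 1.25 for miR-1a-3p (SE 0.84, 95% interval −0.62 to 3.13, limma adjusted p = 0.312). It was 0.31 for miR-133a-3p (SE 0.82, limma adjusted p = 0.818), which was −0.78 in TPM. With median-of-ratios size factors limma-voom on recovered reads gave −0.16 (SE 1.00, adjusted p = 0.921), so its direction was not settled. The scaled log2 fold change was −0.48 for miR-206-3p (SE 0.81, limma adjusted p = 0.710).

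Scaling did not remove the spread between the P0 libraries. The scaled level of miR-1a-3p was 12.5, 25.0 and 16.4 across E14.5 replicates 1 to 3 and 16.8, 23.3 and 192 across P0 replicates 1 to 3, in TPM divided by the size factor. P0 replicates 1 and 2 then lay within the E14.5 range, and P0 replicate 3 remained above it. The scaled level of miR-133a-3p was 3.76, 6.93 and 6.05 at E14.5 and 2.16, 4.18 and 30.1 at P0. For this miRNA P0 replicate 1 stayed below the E14.5 libraries, P0 replicate 2 lay within their range and P0 replicate 3 remained above it. The scaled level of miR-206-3p was 2.25, 12.5 and 17.8 at E14.5 and 7.18, 1.79 and 12.3 at P0, so the stages overlapped over most of their range.

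**Figure D3:**
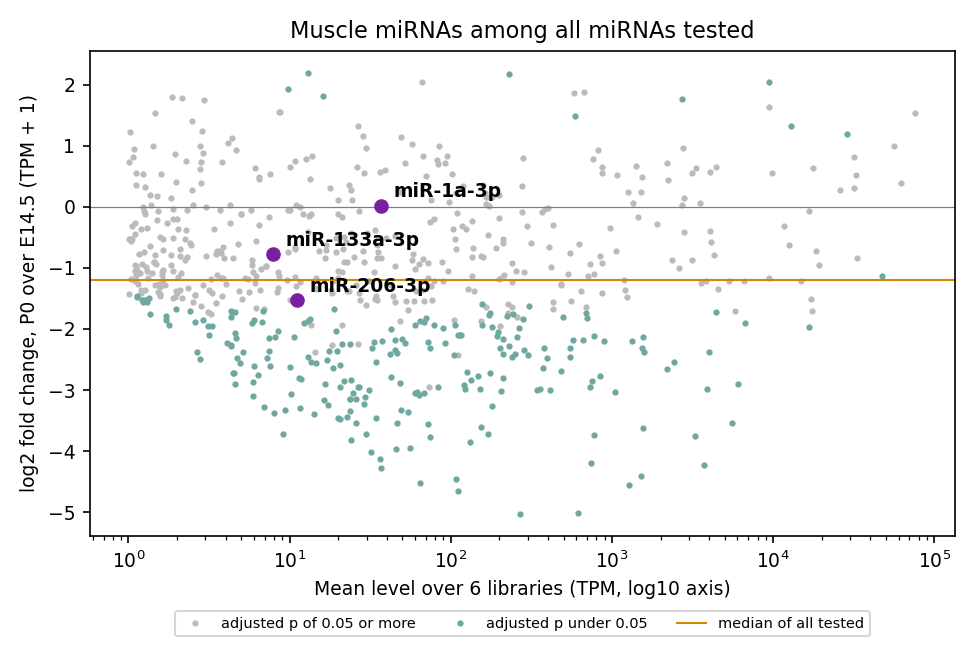
Log2 fold change (P0 over E14.5, log2(TPM + 1) scale) of the 670 miRNAs tested against their mean level over the 6 libraries in TPM on a log10 axis. Green points had an adjusted p under 0.05, grey points did not, and the orange line is the median of −1.20; the 3 tested muscle miRNAs (purple) lie among the grey points at 0.02, −0.78 and −1.52.

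Single libraries moved the members' values. Without P0 replicate 3 the log2 fold change of miR-1a-3p in TPM was −0.95 (limma adjusted p = 0.320) and that of miR-133a-3p was −1.64 (limma adjusted p = 0.0918). Without P0 replicate 1 they were 0.45 (limma adjusted p = 0.605) and −0.32 (limma adjusted p = 0.707). miR-206-3p was −2.35 without E14.5 replicate 1 (limma adjusted p = 0.0662), the library of 2649506 reads in which it had 9 reads, and −0.87 without P0 replicate 2 (limma adjusted p = 0.436). Leaving out P0 replicate 1 raised the number of called miRNAs from 229 to 410, and leaving out E14.5 replicate 1 or 3 or P0 replicate 2 or 3 lowered it to between 66 and 136.

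**Figure D4:**
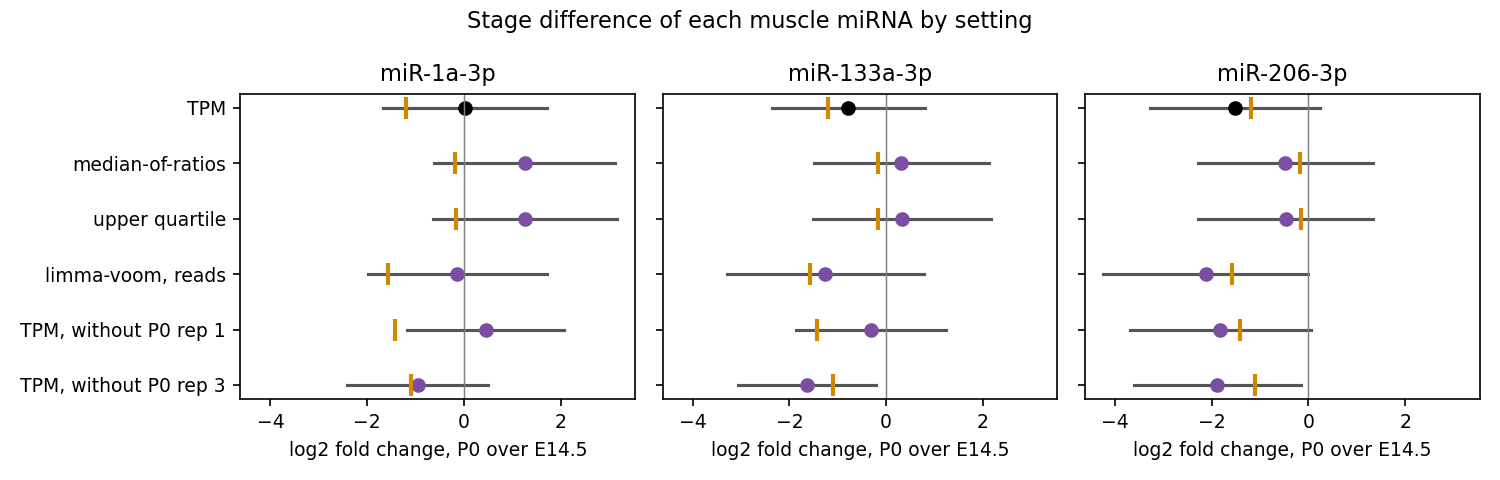
Log2 fold change (P0 over E14.5) of miR-1a-3p, miR-133a-3p and miR-206-3p under 6 settings. Points are estimates, black for TPM and purple for the alternatives, horizontal bars are limma 95% intervals and orange ticks are the median of all miRNAs tested in that setting; the miR-133a-3p point moves from −0.78 in TPM to 0.31 with median-of-ratios scaling, and the miR-1a-3p point from 0.02 to −0.95 without P0 replicate 3.

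The authors' deposited table gave 108 of the 1034 miRNAs an adjusted p under 0.05 (10.4%), with 53 higher (5.13%) and 55 lower (5.32%) at P0. None of the 4 members was among them, and 1 of the 4, miR-1a-3p, had an unadjusted p under 0.05 there. In the authors' deposited table the log2 fold change was 2.15 for miR-1a-3p (SE 0.98, p = 0.0282, adjusted p = 0.114), 1.19 for miR-133a-3p (SE 1.15) and −0.42 for miR-206-3p (SE 1.06). For miR-133b-3p the authors' deposited table gave −0.81 with a standard error of 4.28.

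The rows of the genomic copies bear on how firmly the levels can be read. miR-1a-3p had nearly the same reads at its 2 copies, the lower row holding between 98.9% and 100% of the higher. Whether a read that maps to both copies was counted at each, and whether strand was used, is not given in the sources used here. Summed rows may therefore count such reads at both copies, and the ratios of miR-133a-3p to miR-1a-3p share this uncertainty. For miR-133a-3p the row of the other copy held 2 reads against 15 in E14.5 replicate 1, and between 54.5% and 77.1% of the row used in the other 5 libraries. With the rows of both names summed, the ratio of miR-133a-3p to miR-1a-3p was 0.170, 0.246 and 0.292 at E14.5 and 0.109, 0.142 and 0.121 at P0, still without overlap, and varied 1.72 times within E14.5. With the other copy alone it was 0.0400, 0.214 and 0.215 at E14.5 and 0.0879, 0.103 and 0.0855 at P0, and E14.5 replicate 1, with its 2 reads, then lay below the P0 libraries. That ratio varied 5.38 times within E14.5, so the narrow E14.5 range held for the row used and not for the other copy.

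Other miRNAs of the muscle lineage were also faint. Of the 13 listed, 5 had a row and 2 of these reached the mean of 1 TPM for the test. By mean level all 5 ranked below miR-133a-3p, and miR-1b-3p (567), miR-499-5p (618) and miR-1b-5p (772) ranked above miR-133b-3p (787). Neither of the 2 tested passed in limma, in TPM or after scaling, and 0 had an unadjusted p under 0.05 in either. Their median log2 fold change was −1.09 in TPM, beside −1.20 for all miRNAs tested, and −0.62 after scaling, beside −0.17. None of the 5 in the authors' deposited table had an adjusted p under 0.05 and 1, miR-1b-3p, had an unadjusted p of 0.0139. Its log2 fold change there was −5.28 (SE 2.15, adjusted p = 0.0752), against 2.15 for miR-1a-3p. Those of the other listed miRNAs lay between −4.35 for miR-1b-5p and 2.96 for miR-208b-3p. miR-499-5p, which lies in an intron of the myosin gene Myh7b, had 1.99, 0.668 and 4.11 TPM at E14.5 and 1.54, 0 and 0.0489 TPM at P0 (limma log2 fold change −1.09, adjusted p = 0.160). miR-208b-3p, in an intron of the cardiac and slow muscle myosin gene Myh7, had 32 reads in P0 replicate 1, at 0.920 TPM, and 0 reads in the other 5 libraries.

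miR-499-5p was highest in E14.5 replicate 3 and miR-208b-3p was seen in P0 replicate 1, whereas miR-1a-3p was highest in P0 replicate 3. P0 replicate 3, with 2340 reads of miR-1a-3p, had 1 read of miR-499-5p and 0 of miR-208b-3p, which allows up to 0.140 TPM of the latter. miR-1b-3p, the near relative of miR-1a that is encoded on the opposite strand at one of its copies, had 5.42, 5.06 and 0 TPM at E14.5 and 1.54, 0.601 and 0 TPM at P0 (limma log2 fold change −1.09, adjusted p = 0.245). miR-1b-5p had 47 reads over all libraries and was at 0 in P0 replicates 2 and 3. miR-133a-5p, the other arm of the miR-133a hairpin, had 9 reads in E14.5 replicate 3 and 6 in P0 replicate 1, and 0 in the other 4 libraries, including the library with the most miR-133a-3p.

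Marker miRNAs of other cells and tissues gave a frame for these levels. Their counts of calls stand beside the shares over all 670 miRNAs tested, of which 32.8% were called lower in TPM and 5.22% lower and 5.67% higher after scaling, so a call of 1 of 2 in TPM is near the background. miR-486a-5p and miR-486b-5p, which muscle and red blood cells share and which are encoded on opposite strands of 1 locus, summed to 71.2, 126 and 147 TPM at E14.5 and 75.1, 279 and 293 TPM at P0. Neither passed in limma in TPM (adjusted p = 0.363 and 0.389, with 0 at an unadjusted p under 0.05). After scaling neither passed (limma adjusted p = 0.0845 and 0.0861), and both had an unadjusted p under 0.05. The authors' deposited table called both higher at P0, with log2 fold changes of 2.20 (adjusted p = 0.0245) and 2.16 (adjusted p = 0.0255). P0 replicates 2 and 3 were alike in these miRNAs, at 279 and 293 TPM, whereas their miR-1a-3p differed. The erythroid pair miR-451a and miR-144-3p was between 159 and 341 TPM at E14.5 and between 40.0 and 65.2 TPM at P0, with 1 of 2 called lower in TPM and 0 of 2 after scaling. The sum of the pair was lowest in P0 replicate 3, at 70.5 after scaling against 74.4 in P0 replicate 1, but miR-451a was lowest in P0 replicate 2 and, after scaling, miR-144-3p was lowest in E14.5 replicate 2.

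The smooth muscle miRNAs miR-143-3p and miR-145a-5p were between 17097 and 28355 TPM at E14.5 and between 4923 and 12776 TPM at P0, with 1 of 2 called lower in TPM and 0 of 2 after scaling. Their levels in P0 replicates 1 and 3 were 12776 and 11588 TPM, while miR-1a-3p was 14.7 and 109 TPM. After scaling P0 replicate 3 was the highest of the 6 libraries in the smooth muscle sum, at 20436 against 9324 to 18756 in the others, and also the highest in miR-1a-3p. This sum was mostly miR-143-3p. Scaled miR-145a-5p was 549 in P0 replicate 3, below all E14.5 libraries (642 to 1173) and below P0 replicate 1 (754). Endothelial miR-126a arms were between 26608 and 44921 TPM at E14.5 and between 5634 and 8158 TPM at P0, with 2 of 2 called lower in TPM and 1 of 2 after scaling. The 3 stromal miRNAs were between 64531 and 80227 TPM at E14.5 and between 28426 and 33658 TPM at P0, with 2 of 3 called lower in TPM, where 32.8% of all miRNAs were, and 0 of 3 after scaling. After scaling the stromal sum was also highest in P0 replicate 3, at 59357 against 37493 to 53837 in the others. The scaled endothelial, erythroid, leukocyte, epithelial and neural sums were highest in E14.5 replicate 1.

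The summed level of the epithelial and leukocyte lists was also lower in every P0 library than in every E14.5 library in TPM, where 49.6% of all miRNAs tested had stages that did not overlap in one direction or the other and the median log2 fold change was −1.20. After scaling this held for the epithelial list, and the leukocyte sums overlapped, at 493 to 967 and 745 to 905. The 5 epithelial miRNAs of the miR-200 family were between 4122 and 23183 TPM at E14.5 and between 500.2 and 1542 TPM at P0, with 5 of 5 called lower in TPM and 3 of 5 after scaling. The 4 leukocyte miRNAs were between 724 and 1462 TPM at E14.5 and between 478 and 654 TPM at P0, with 1 of 4, miR-155-5p, called lower in TPM, and 1 of 4, miR-223-3p, called higher after scaling. miR-9-5p, of the neural pair, was called lower in TPM and was not called after scaling, and miR-124-3p had 13 reads in all. Nephron progenitors are defined by protein-coding genes that a small RNA table does not measure, so the label was not checked here. The part of these other cells in the muscle miRNA levels was not tested.

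By the shape of their profile over the 6 libraries, the members did not track 1 another equally. Likeness was the root-mean-square difference of log2(TPM + 1) after centring each miRNA on its own mean, and it is a description. miR-1a-3p and miR-133a-3p differed by 0.45, less than either differed from any of the 409 unlisted miRNAs averaging 10 TPM or more. miR-133a-3p itself averaged 7.90 TPM, and unlisted miRNAs averaging under 10 TPM were not compared. miR-206-3p differed from miR-1a-3p by 1.28 and from miR-133a-3p by 1.05, against a median of 1.31 between miR-206-3p and the 409. The unlisted miRNAs nearest to miR-1a-3p were miR-431-3p (0.69), miR-16-1-3p (0.74) and miR-1843b-5p (0.79). Those nearest to miR-133a-3p were miR-667-3p (0.62), miR-132-3p (0.63) and miR-134-5p (0.63). Those nearest to miR-206-3p were miR-222-3p (0.72), miR-370-5p (0.77) and miR-329-3p (0.78).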

How the data were processed

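Small RNA from 6 samples was sequenced from single-end QIAseq miRNA libraries, as the labels' protocols state. The authors deposited 1 table of 1104 rows with a TPM value per sample, their mean normalised signal, and their log2 fold change with its standard error, test score, p-value and adjusted p-value. featureCounts, DESeq2 1.26.0 and build mm10 are named in the submitters' processing notes. The trimming, the aligner and the treatment of molecular tags are not given in the sources used here. The sign of the authors' deposited log2 fold change was read as P0 over E14.5 from the values.

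TPM multiplied by end minus start came out as a whole number of steps of 1 size per library in 100% of values (tolerance 1e-06), which gave whole reads, from 2649506 to 34934526 per library. Intervals are exact (Clopper-Pearson, 95%), floors are 3 reads, and both cover counting error only. The two-sided test was limma (version 3.58.1 in R 4.3.3, trended variances) on log2(TPM + 1) of every miRNA averaging 1 TPM or more, with Benjamini-Hochberg adjustment over all miRNAs tested. Fold changes on this scale understate those of low miRNAs. The fit was tested on simulated reads with the same dispersion set for every miRNA. There it called 0.811% of unchanged miRNAs and 73.4% of those changed by 1 on the log2 scale. The simulation was not set to the spread of the members between litters. An exact permutation test of 3 libraries against 3 could not go below p = 0.1 and was not used. The named miRNAs were the members, the other listed muscle miRNAs and the 3 unlisted miRNAs nearest to each tested member, and beside them miRNAs from the marker lists of other cells, some singled out after their values were seen. The members, lists and rules were chosen with earlier results of these data known. Replicate numbers were tested for pairing, since same-numbered samples are different litters. Alternatives were other scalings, filters, a pseudocount of 0.1, limma-voom, summed rows, the replicate block and leaving out each library.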

Additional observations from a re-analysis of the deposited data

How the results depend on the processing

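None of 69 alternative fits of miR-1a-3p, miR-133a-3p and miR-206-3p passed the threshold, with limma adjusted p between 0.0662 and 0.997. An unadjusted p under 0.05 was reached in 5 of them. These were miR-206-3p in limma-voom (adjusted p = 0.111), without E14.5 replicate 1 (0.0662) and without P0 replicate 3 (0.107), miR-133a-3p without P0 replicate 3 (0.0918), and scaled miR-1a-3p without P0 replicate 1 (0.0793). The directions were less steady. miR-133a-3p was 0.31 with median-of-ratios scaling, with or without the replicate block, and 0.33 with upper-quartile scaling. miR-1a-3p was −0.13 in limma-voom. Leaving out each library gave −0.95 to 0.57 for miR-1a-3p, −1.64 to −0.32 for miR-133a-3p and −2.35 to −0.87 for miR-206-3p in TPM, and 0.20 to 1.85, −0.67 to 0.94 and −1.25 to 0.21 after median-of-ratios scaling. miR-133b-3p was below the filter and untested in the main comparison. Without the filter it was −0.66 (SE 0.44, limma adjusted p = 0.308), and its stage difference was −1.63 with a pseudocount of 0.1, and −0.997 to −0.0081 when libraries were left out in TPM and −0.68 to 0.02 after scaling. miR-133a-3p fell below the filter at 10 TPM and was not fitted there. At its other copy, an alternative chosen after seeing the data, it was −0.35.

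The log2 ratio of the members' summed stage means was 0.05 in TPM, 1.47 and 1.49 with median-of-ratios and upper-quartile scaling, and −1.52 (without P0 replicate 3) to 0.50 when libraries were left out. The number of called miRNAs was 229 in TPM, 73 with median-of-ratios scaling (67 with the block), 58 with upper-quartile scaling and 28 when limma-voom used median-of-ratios factors. Leaving out libraries gave 66 to 410 in TPM and 0 to 327 after scaling. The 3 scaled fits with 0 calls had 139 to 145 miRNAs at an unadjusted p under 0.05. The causes were not tested. Deviations of same-numbered samples correlated at 0.19, 0.18 and 0.04 across miRNAs, and those of different-numbered samples between −0.18 and 0.08. The values of 0.19 and 0.18 were the highest of these, and so few values do not settle whether the numbers pair samples. Same-numbered samples are different litters, so the main fit took no pairing. With the replicate block 247 miRNAs were called in TPM, and no member. Depth limits miR-206-3p, miR-133a-3p and miR-133b-3p in E14.5 replicate 1.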
